A study of Mus musculus with 45 samples.

Results

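The Obox genes encode homeobox proteins that are made in oocytes and early embryos of rodents. The members described here, Obox1, Obox2, Obox3, Obox5 and Obox6, are 5 of 26214 genes in a table of RNA levels in fully grown oocytes (FGOs) and two-cell embryos, and they were taken from it by symbol. The table holds 1 more row of the family, Obox7, which is given beside them.

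The study expressed a histone H3.3 in which lysine 36 is replaced by methionine (K36M) in growing mouse oocytes and measured RNA before and after fertilization. Control mice carried the H3f3b K36M-flox/+ allele without Cre, and K36M mice carried the same allele with Gdf9-Cre, whose promoter acts in oocytes, so that the embryos received the mutant histone from the oocyte. Per the paper, K36M females crossed with wild-type males should give offspring with and without the mutant allele. The genotype of each single embryo is not given in the sources used here. RNA came from 3 control and 3 K36M libraries of pooled FGOs of females 3 to 4 weeks old, of the strain hybrid C57BL/6 / 129. It also came from 15 late two-cell embryos, sequenced singly and taken 31 to 32 h after in vitro fertilization, of which 7 came from control and 8 from K36M oocytes. Their label reads hybrid C57BL/6 / 129 X JF-1, and control replicate 4, which the study excluded, was left out. The 2 stages therefore also differ in pooling, in the number of amplification cycles and in the presence of a paternal genome, and these cannot be told apart from the stage. The labels do not say whether libraries of a group came from separate animals, so the p-values measure the spread between these libraries, which may be technical.

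A homeobox codes for a domain that binds DNA through a helix turned into the major groove, and the residue at one position of that helix sets much of the base preference. In the mouse egg, transcripts stored during growth are degraded after meiosis resumes and after fertilization, while the embryo's own genome becomes strongly active at the two-cell stage. A family in which some transcripts are stored and others are made by the embryo can therefore be seen from both sides of this change. Expression was given as TPM, a share of the library scaled to gene length, so levels of different genes can be compared, but a change in the total RNA of a cell is not seen. TPM keeps no depth, and the reads behind each value are unknown.

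The protein-coding Obox genes lie together on chromosome 7. RefSeq annotates 51 Obox loci there, and by its GRCm38.p6 coordinates (mm10) they lie within 1.322 Mb. Of these, 6 are protein coding and all are in the table, and 45 are pseudogenes, none of which is in it. Obox2 lies at chr7:15388851-15398545 on the + strand, Obox1 at chr7:15547257-15556846 on the + strand, Obox3 at chr7:15625306-15639777 on the − strand, Obox5 at chr7:15750370-15759274 on the + strand and Obox6 at chr7:15833250-15839679 on the − strand. Obox7 lies apart, at chr7:14659708-14665996 on the + strand. Obox3 and Obox6 are the members on the − strand, and Obox3 lies between Obox1 and Obox5.

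The coding bases of the recognition helix show how far the members differ where the protein meets DNA. They were read from the RefSeq transcripts for the members in which they lie in the annotated frame, and the capitals mark the codon at the position that sets the base preference.
Obox1: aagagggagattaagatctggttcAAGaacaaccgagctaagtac
Obox5: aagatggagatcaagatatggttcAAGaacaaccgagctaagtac
Obox3: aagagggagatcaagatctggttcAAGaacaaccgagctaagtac
Obox6: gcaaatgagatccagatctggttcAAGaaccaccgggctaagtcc
All 4 have AAG, a lysine codon, at this place. In Obox2 these bases are not in the annotated frame, so the stretch of its transcript most like that of Obox1 was taken. It also has AAG, but its likeness to Obox1 follows from this choice. Against the 45 bases of Obox1, Obox3 differed at 1 base and Obox2 at 1, Obox5 at 3 and Obox6 at 10. Over whole transcripts the order was different. These were aligned end to end with gaps counted as differences, so identity also reflects length (1603 bases in Obox3 and 1217 in Obox1). Obox1 and Obox2 were 90.0% identical and Obox5 was 85.8% and 86.9% identical to them, whereas Obox3 was 68.4% identical to Obox1 and Obox6 66.3%. Obox3 and Obox6 were the least alike of the pairs, at 55.2%.

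Because the genes are so alike, part of their 53-base reads can match more than 1 place. The libraries were read from both ends, so the other read of a pair may still place it. The share of reads that could not be placed was not measured. Of all 53-base stretches of the mature transcript, 49.3% in Obox1 and 44.2% in Obox2 were found once in the genome and the family, and 577 stretches were shared by both genes. The share was 86.3% for Obox5 and 93.9% for Obox6. For Obox3 it was 52.0%, and most of its repeated stretches lay elsewhere in the genome, since only 0.838% of its stretches were in another Obox transcript. How the authors counted reads with several positions is not given in the sources used here, so the split between Obox1 and Obox2 is uncertain. The level of Obox3 is uncertain too, since reads from its repeated stretches may have been counted or left out. Obox6 shared no stretch with another Obox transcript.

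**Figure D1:**
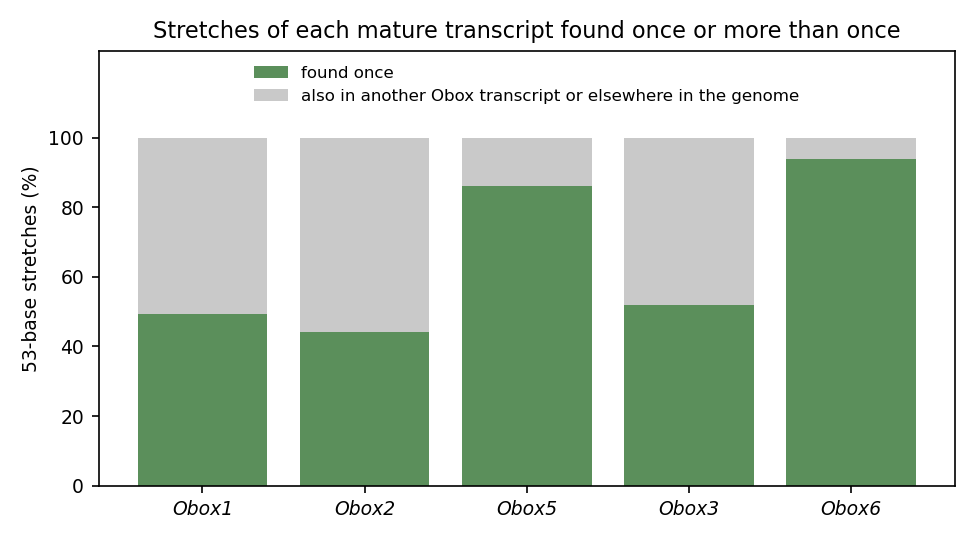
Share of the 53-base stretches of each mature Obox transcript (y axis, percent) that were found once (green) or also in another Obox transcript or elsewhere in the genome (grey). Obox5 and Obox6 are mostly found once, at 86.3% and 93.9%, and Obox1 and Obox2 less, at 49.3% and 44.2%.

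In control FGOs, 3 members were abundant and 2 were near 0. Obox2 had the highest level, with 1517, 1600 and 1668 TPM in the 3 libraries, followed by Obox5 with 1532, 1474 and 1467 TPM and Obox1 with 991, 955 and 940 TPM. The libraries of Obox2 and Obox5 overlapped, and all of Obox1 lay below them. By mean TPM Obox2 ranked 42 among 26214 genes, Obox5 ranked 49 and Obox1 ranked 88. Obox3 had 0.0588, 1.26 and 0.915 TPM, and Obox6 had 1.83, 0.504 and 0 TPM. Obox7 lay between, at 224, 166 and 223 TPM.

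K36M FGOs showed the same order of mean TPM, and the libraries of Obox2 and Obox5 again overlapped. By median, Obox5 (1340 TPM) lay above Obox2 (1307 TPM). Obox2 had 1683, 1307 and 1263 TPM, Obox5 had 1529, 1277 and 1340 TPM and Obox1 had 1071, 831 and 810 TPM. Replicate 1 was the highest K36M library for each of these 3 genes. Obox3 was listed at 0, 0.103 and 0 TPM and Obox6 at 0.807, 0 and 0.145 TPM.

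In two-cell embryos the order changed. In control embryos Obox5 ran from 98.1 to 795 TPM (median 391), Obox6 from 206 to 459 TPM (median 302) and Obox3 from 149.8 to 301 TPM (median 253). Obox1 ran from 34.6 to 200.1 TPM (median 113) and Obox2 from 44.2 to 151 TPM (median 136). Each of these neighbours in the order overlapped, and Obox1 and Obox2 overlapped over most of their range. In K36M oocyte-derived embryos Obox6 ran from 182 to 618 TPM (median 418), Obox5 from 156 to 610 TPM (median 294), Obox3 from 95.5 to 310 TPM (median 214), Obox2 from 32.2 to 229 TPM (median 77.2) and Obox1 from 10.8 to 141 TPM (median 74.6). For the abundant members, single embryos varied among themselves more than the FGO libraries, which were pools. The coefficient of variation of Obox5 was 2.39% in control FGOs and 54.4% in control embryos, and that of Obox1 was 2.76% and 50.2%. Among control embryos Obox3 and Obox6 varied less, at 23.1% and 27.5%, and in control FGOs, where both were near 0, they varied more, at 83.1% and 121.6%.

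**Figure D2:**
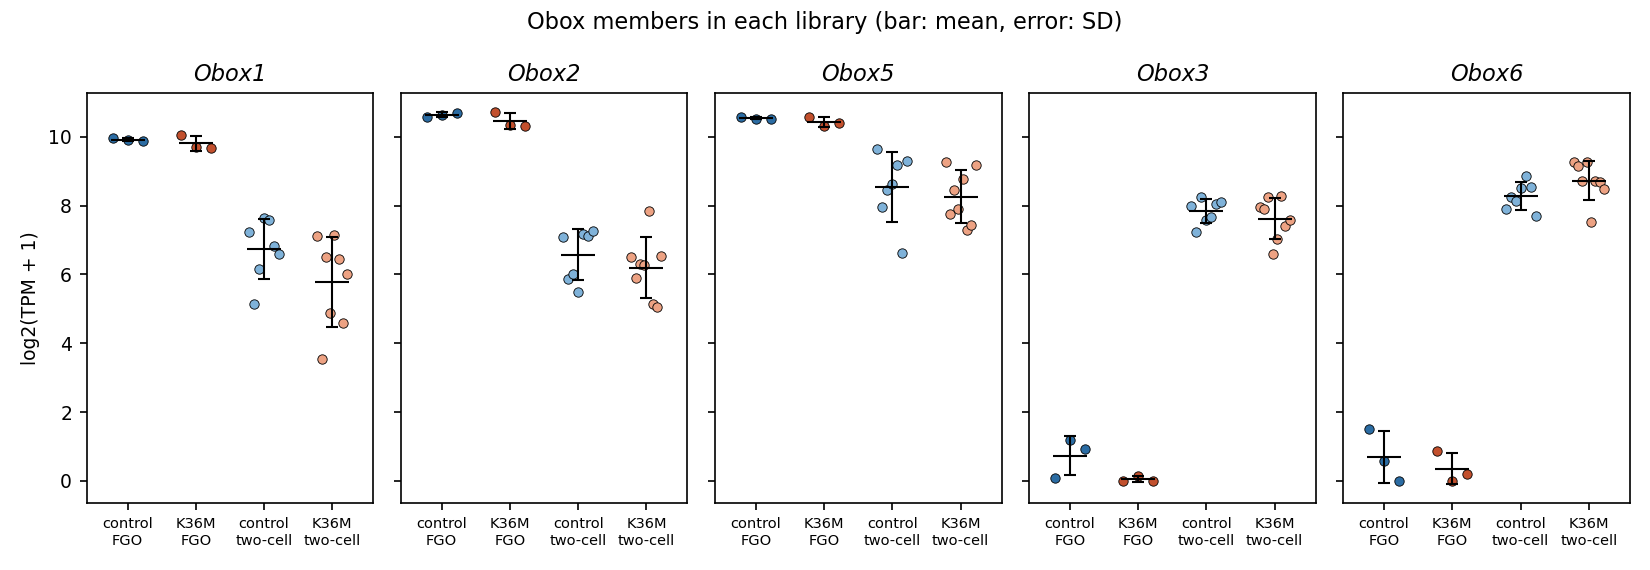
log2(TPM + 1) of each Obox member (y axis) in the 4 groups (x axis), with 1 point per library, a bar at the mean and error bars of 1 SD (n = 3, 3, 7 and 8). Obox1, Obox2 and Obox5 lie higher in every FGO library than in any embryo, and Obox3 and Obox6 lie lower.

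The first question was which members were stored by the oocyte and which appeared after fertilization. In control samples Obox1, Obox2 and Obox5 fell between the stages and Obox3 and Obox6 rose. The test was limma on log2(TPM + 1) with Benjamini-Hochberg adjustment over 16914 genes with a mean of at least 1 TPM, of which 15% were higher and 15.5% lower in two-cell embryos. Obox3 and Obox6 averaged 0.744 and 0.779 TPM in control FGOs, under this minimum, so they entered the test only through the embryos, in which they were high, and had to differ. Their rise is therefore a description and their number supports nothing. Adding 1 to each TPM makes the fold of a gene near 0 in either stage smaller than that of its TPM.

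On the log2 scale Obox6 rose most, by 7.58 (standard error 0.39), and Obox3 rose by 7.10 (standard error 0.37). The size of both changes depends on the pseudocount, and with 0.1 in place of 1 they were 9.30 and 8.56. Obox2 fell by 4.07 on the log2 scale (standard error 0.40 and adjusted p = 9.12e-06 by limma), to a mean of 6.56% of its TPM in FGOs. Obox1 fell by 3.17 (standard error 0.45, adjusted p = 0.000211), to 12.6% of its TPM. Obox5 fell least, by 2.00 (standard error 0.50, adjusted p = 0.00877 by limma), to 29.6% of its TPM. The values of the FGOs and the embryos did not overlap for Obox1, Obox2 and Obox5, which held for 18.2% of the genes tested in the lower direction, nor for Obox3 and Obox6, whose entry through the embryos alone means that nothing is read against the 14.5% in the higher direction. For each of the 3 that fell the two-sided exact permutation p was 0.0167, the smallest that 3 against 7 libraries allow, which says no more than that the groups did not overlap.

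In the K36M groups the directions were the same, and Obox3 and Obox6 again entered the test only through the embryos. Here 9.86% of 16677 genes were higher and 15.4% lower in two-cell embryos. Obox6 rose by a log2 fold change of 8.38 (standard error 0.41) and Obox3 by 7.58 (standard error 0.46), or by 10.55 and 10.60 with a pseudocount of 0.1. Obox2 fell by 4.26 on the log2 scale (standard error 0.48), Obox1 fell by 4.03 (standard error 0.67) and Obox5 fell by 2.17 (standard error 0.40). The adjusted p-values from limma of these 3 lay under 0.05, and they stayed there when any 1 library was left out. With the replicate number as a block the call of Obox1 was lost (−4.09, adjusted p = 0.0716 from limma). Again Obox1, Obox2 and Obox5 did not overlap between stages, which held for 16.9% of genes in the lower direction (9.41% in the higher, against which Obox3 and Obox6 are not read), and their exact permutation p was 0.0121, the smallest that 3 against 8 libraries allow. Obox7 fell by 2.50 in control and by 3.14 in K36M (adjusted p = 0.000308 and 0.0450 from limma), and the latter call was lost under 12 of 20 alternatives.

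**Figure D3:**
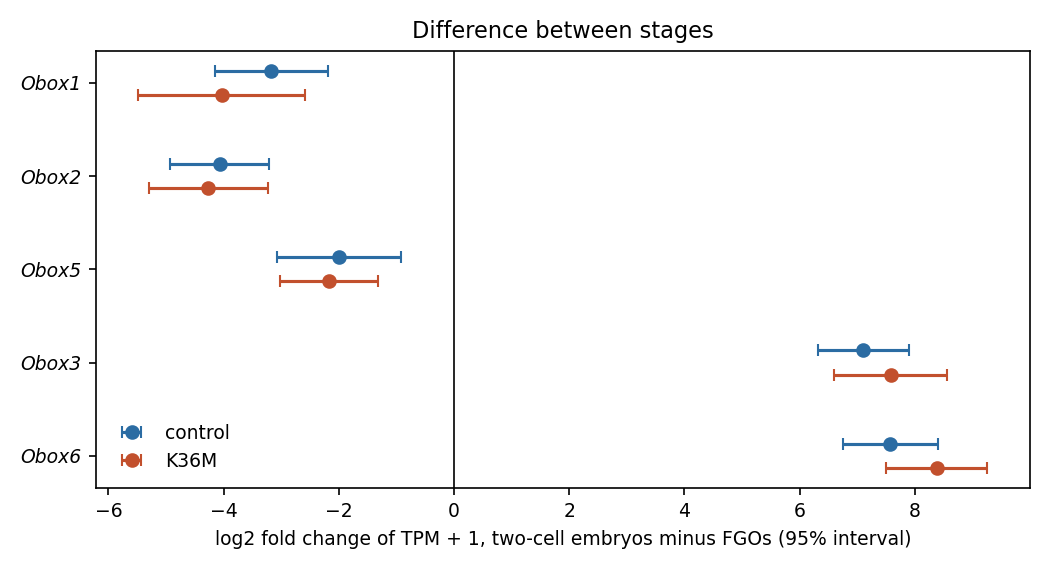
log2 fold change of TPM + 1 between two-cell embryos and FGOs (x axis, embryos minus FGOs) for each Obox member (y axis), in control (blue) and K36M (red), with 95% intervals from limma. Obox1, Obox2 and Obox5 lie left of 0 and Obox3 and Obox6 lie right of 0 in both genotypes.

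The make-up of the family changed with the stage. In control FGOs the summed TPM of the 6 Obox rows was 4254 ± 51.7 (SD, n = 3), of which Obox2 took 37.5% ± 1.71, Obox5 35.1% ± 0.90 and Obox1 22.6% ± 0.70 (SD, n = 3), and Obox3 and Obox6 together took 0.0359% ± 0.0127. In control embryos the sum was 1257 ± 303 TPM (SD, n = 7), and Obox3 and Obox6 together took 46.0% ± 11.8, from 30.2% to 63.5% in single embryos. Obox5 took 33.3% ± 12.7, from 9.78% to 48.8% in single embryos, and the shares of Obox1 and Obox2 were 9.40% ± 4.08 and 8.29% ± 3.32. In K36M oocyte-derived embryos Obox3 and Obox6 together took 56.6% ± 15.7 (SD, n = 8), from 27.8% to 71.2%. Obox5 took 27.8% ± 10.6 there, against 34.2% to 37.6% in the 3 K36M FGO libraries. These shares are a description, and no test was made on them.

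**Figure D4:**
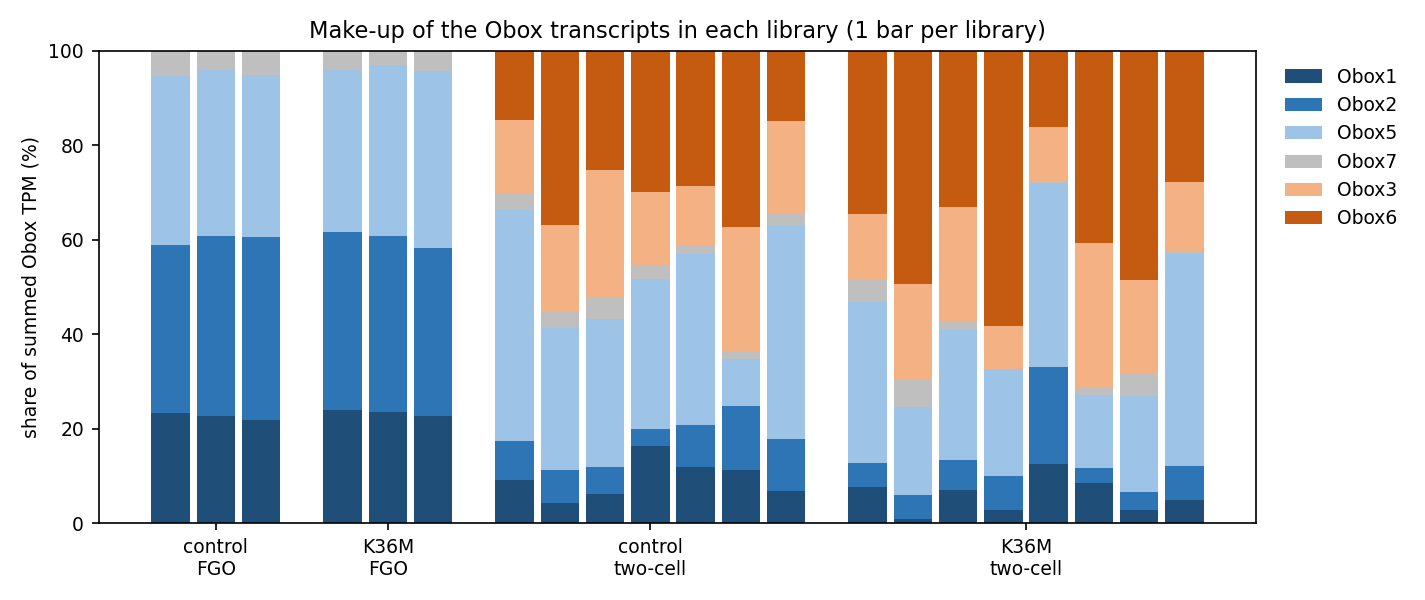
Share of the summed Obox TPM (y axis, percent) taken by each Obox row, with 1 stacked bar per library, grouped by stage and genotype (x axis). Obox3 and Obox6 (orange) are not visible in FGOs and take 27.8% to 71.2% of single embryos.

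The second question was whether the K36M histone changed any member at either stage. In FGOs, no member passed the threshold, against 1 of 13775 genes tested (0.00726%). Obox1, Obox2 and Obox5 were tested, while Obox3 and Obox6 were under the minimum mean of 1 TPM. The log2 fold change of K36M against control was −0.10 for Obox1 (95% interval −0.34 to 0.14), −0.18 for Obox2 (−0.42 to 0.06) and −0.11 for Obox5 (−0.29 to 0.06). Adjusted p-values from limma lay between 0.576 and 0.747. At an unadjusted p under 0.05 there were 1446 genes in all, none of them a member. Obox7 was among them, with a log2 fold change of −0.51 (95% interval −0.95 to −0.07, adjusted p = 0.429 from limma), and its FGO libraries overlapped. The FGO libraries overlapped for each member, and 3 against 3 libraries cannot give an exact permutation p below 0.1. K36M replicate 1 touched these values. Without it the log2 fold change of Obox2 was −0.31 (adjusted p = 0.0549 from limma) and that of Obox1 was −0.23 (adjusted p = 0.0909), and the number of genes past the threshold was 191 higher and 109 lower.

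In two-cell embryos, no member passed the threshold either, and 0% of 17362 genes did by limma, with 1338 at an unadjusted p under 0.05. Control and K36M oocyte-derived embryos overlapped for each member. Obox1 had a log2 fold change of −0.96 (95% interval −2.05 to 0.12, adjusted p = 0.676 from limma) and Obox6 of 0.45 (−0.08 to 0.99, adjusted p = 0.680). Obox2 had −0.38 (−1.26 to 0.50), Obox5 −0.28 (−1.09 to 0.52) and Obox3 −0.21 (−0.80 to 0.37). Obox7 had −1.15 (−2.67 to 0.37, adjusted p = 0.700 from limma), and of the Obox rows tested it had the lowest value at both stages. The median over all genes was −0.26, so 4 of the 5 values lay on the same side as most genes. The two-sided exact permutation p was 0.119 for Obox1 and 0.108 for Obox6, and higher for the others. A fall of 1 log2 unit lay inside the intervals of Obox1, Obox2 and Obox5 and outside those of Obox3 and Obox6, and a rise of 1 lay outside all 5. Control replicate 4, when added, was listed at 0 TPM for Obox3, and turned the log2 fold change of Obox3 to 0.77 (adjusted p = 0.756 from limma).

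Whether the change between stages differed by genotype was tested by the interaction term over 21 libraries. It passed the threshold for no member and for 0% of 17358 genes by limma, with 199 at an unadjusted p under 0.05. The term was 0.80 for Obox6 (95% interval −0.39 to 1.99), −0.86 for Obox1 (−2.63 to 0.91) and between −0.20 and 0.47 for the other members. The terms of Obox3 and Obox6 depend on the pseudocount. With 0.1 in place of 1, that of Obox3 went from 0.47 to 2.04 and that of Obox6 to 1.25, with adjusted p = 1.00 from limma for both.

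Other genes of the oocyte and of the two-cell embryo give a measure for these changes. Of 16 genes known for their role in oocytes, chosen by name, 15 were lower in control embryos than in control FGOs, against 15.5% of all genes tested, with a median log2 fold change of −3.96 against 0.08 over all genes tested. The exception was Sohlh1, a factor of early oocyte growth, which had a mean of 0.815 TPM in control FGOs and 11.6 TPM in control embryos (log2 fold change 2.29, adjusted p = 0.101 from limma). It entered the test only through the embryos, so its direction was fixed. Obox2 fell by more than the median of these 16 genes, and Obox1 and Obox5 by less. Gdf9, an oocyte growth factor, had a mean of 4942 TPM in control FGOs and 256.1 TPM in control embryos, and Padi6, a protein of the cytoplasmic lattices, 3927 and 262 TPM. Btg4, an adaptor of mRNA deadenylation, fell less, with 3498 and 1205 TPM. Of 15 transcripts known from the two-cell stage, 11 were higher in control embryos and 1, Eif4e3, was lower, against 15% and 15.5% of all genes tested. Of the 11, 6 averaged under 1 TPM in control FGOs and, like Obox3 and Obox6, entered the test only through the embryos, so that their direction was fixed. The other 5 included Dppa4 and Zscan4d. Usp17lc, a deubiquitinase gene, had a mean of 1.48 TPM in control FGOs and 299.6 TPM in control embryos. Sp110, a nuclear body protein, had 686 and 1008 TPM, and its log2 fold change was 0.48 (adjusted p = 0.208 from limma). Eif4e3, a cap-binding protein, had 433 and 129.7 TPM. In K36M the counts were 15 lower of 16 and 11 higher and 1 lower of 15, and 8 of these 11 averaged under 1 TPM in K36M FGOs.

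Among 29 other homeobox genes, 24 were tested in control, of which 5 were higher and 6 lower in embryos, against 15% and 15.5% of all genes, and 3 of the 5 averaged under 1 TPM in control FGOs. Nobox, a regulator of oocyte genes, had 892 TPM in control FGOs and 63.1 TPM in control embryos. Pou5f1, a regulator of pluripotency, had 265 and 311 TPM, and its log2 fold change was 0.19 (adjusted p = 0.590 from limma). Meis2, a TALE homeobox factor, had 201 and 96.8 TPM. In K36M, 2 of 23 tested were higher and 4 lower, near the 9.86% and 15.4% over all genes. Crxos, which lies next to Obox6 beyond Crx, was listed at 0, 0 and 0.264 TPM in control FGOs and at 3.49 to 169 TPM in control embryos. It too entered the test only through the embryos, so its difference is a description. Crx itself, a homeobox gene of photoreceptors, stayed between 0 and 6.46 TPM in these control samples. Of the other genes within 100 kb, Nop53, a factor of ribosome assembly, rose by 2.96 (adjusted p = 0.000135 from limma). Selenow, a small selenoprotein, had a log2 fold change of −1.31 (adjusted p = 0.0733) and Snord23 of 1.46 (adjusted p = 0.295).

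Genes with the pattern most like each member were found by the smallest root mean square difference of log2(TPM + 1), centred on each gene's mean, over the 21 libraries and 17358 genes with a mean of at least 1 TPM. For Obox1 these were Fbxw19, Ipcef1 and Bmp15. For Obox2 they were Nlrp4f, Padi6 and Rdx, and for Obox5 Tacc2, Smarcal1 and Anxa7. For Obox3 they were Foxi3, Exoc3l2 and Trim43b, and for Obox6 Trim43a, Btbd18 and Trim43b. The differences ran from 0.48 to 0.69. Bmp15, an oocyte growth factor, and Padi6 were also in the list of oocyte transcripts. Trim43b, which was near both Obox3 and Obox6, had a mean of 0.20 TPM in control FGOs and 289 TPM in control embryos. Btbd18 had 0.17 and 484 TPM and Foxi3 had 0.02 and 271 TPM.

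The next question was whether members varied together among single embryos. Across the 15 embryos, 25 relations were computed, namely 10 among members and 15 of members with the median of the oocyte list, the median of the two-cell list and the number of genes above 0. None passed 0.05 after Benjamini-Hochberg adjustment in a permutation test with 100000 resamples, while 1 by Pearson and 4 by Spearman had an unadjusted p under 0.05. The members share a library and the TPM scale in each point. Of the 4, 2 were between members that fell. Obox2 and Obox5 gave r = 0.48 (permutation p = 0.0674, adjusted p = 0.340) and rho = 0.58 (permutation p = 0.0239, adjusted p = 0.206), and r was 0.76 without the 2 embryos farthest from the median. Within control embryos r was 0.18 (exact permutation p = 0.726) and within K36M oocyte-derived embryos 0.75 (exact permutation p = 0.0256). Obox1 and Obox5 gave r = 0.48 (permutation p = 0.0680, adjusted p = 0.340) and rho = 0.57 (permutation p = 0.0294, adjusted p = 0.206), and r was 0.66 without the 2 farthest. Within control embryos it was 0.34 (exact permutation p = 0.453) and within K36M oocyte-derived embryos 0.60 (exact permutation p = 0.120). Obox1 and Obox2, which share 577 stretches, gave r = 0.49 (permutation p = 0.0668, adjusted p = 0.340) and rho = 0.51 (permutation p = 0.0540, adjusted p = 0.270), and r was 0.33 without the 2 farthest. Within control embryos it was 0.30 (exact permutation p = 0.526) and within K36M oocyte-derived embryos 0.51 (exact permutation p = 0.199). Obox5 and the oocyte list gave r = 0.61 (permutation p = 0.0150, adjusted p = 0.340) and rho = 0.64 (permutation p = 0.0123, adjusted p = 0.206), and r was 0.65 without the 2 embryos farthest from the median. Within control embryos r was 0.42 (exact permutation p = 0.350) and within K36M oocyte-derived embryos 0.81 (exact permutation p = 0.0253). Obox3 and the two-cell list gave r = 0.37 (permutation p = 0.179, adjusted p = 0.421) and rho = 0.56 (permutation p = 0.0329, adjusted p = 0.206), and r was 0.33 without the 2 farthest and 0.89 with control replicate 4 added (adjusted p = 0.0851 by permutation). Within control embryos r was 0.81 (exact permutation p = 0.0252) and within K36M oocyte-derived embryos 0.23 (exact permutation p = 0.584). Obox1 and the oocyte list gave r = 0.49 over 15 embryos (permutation p = 0.0661, adjusted p = 0.340) and rho = 0.38 (permutation p = 0.169, adjusted p = 0.524), and r was 0.35 without the 2 farthest. Within control embryos r was −0.37 (exact permutation p = 0.420) and within K36M oocyte-derived embryos 0.93 (exact permutation p = 0.000694). Obox2 and the two-cell list gave r = 0.36 over 15 embryos (permutation p = 0.185, adjusted p = 0.421) and rho = 0.31 (permutation p = 0.259, adjusted p = 0.539), and r was 0.029 without the 2 farthest. Within control embryos r was 0.77 (exact permutation p = 0.0413) and within K36M oocyte-derived embryos 0.17 (exact permutation p = 0.685). These last 2 relations are given because they had an unadjusted p under 0.05 within a genotype, as had 5 of the 50 within-genotype values of r. Adjusted over the 50, a step added after the values were seen, that of Obox1 and the oocyte list in K36M oocyte-derived embryos had p = 0.0347 by r and p = 0.0570 by rho (exact permutation tests), and the other 4 values of r did not pass 0.05. Differences between genotypes in these relations were not tested. Obox3 and Obox6, the members that rose, gave r = −0.07 (permutation p = 0.804, adjusted p = 0.861), which went to 0.61 with control replicate 4 added (adjusted p = 0.158 by permutation), and rho = −0.0036 (permutation p = 0.995, adjusted p = 1), and r was −0.28 without the 2 farthest. Within control embryos it was −0.42 (exact permutation p = 0.344) and within K36M oocyte-derived embryos 0.19 (exact permutation p = 0.654).

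The bases before the start show what the members share across the 2 patterns. RefSeq windows of 250 bases before each start were matched for 4 of 5 members, all but Obox6. Bases −125 to −1 before the start of Obox3, which rose, were 92.0% identical to bases −114 to 10 around the start of Obox1 and 92.8% identical to bases −126 to −2 of Obox5, both of which fell. With Obox2 the match was 88.1% over 67 bases, since its annotated start lies farther upstream. The stretches below are the 130 bases before the start on the gene's own strand in GRCm38.p6, with TATATAA in capitals, and they lie at chr7:15547127-15547256 (+), chr7:15750240-15750369 (+) and chr7:15639778-15639907 (−).
Obox1: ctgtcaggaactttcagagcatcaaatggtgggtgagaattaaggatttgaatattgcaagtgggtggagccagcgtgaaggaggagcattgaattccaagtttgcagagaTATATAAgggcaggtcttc
Obox5: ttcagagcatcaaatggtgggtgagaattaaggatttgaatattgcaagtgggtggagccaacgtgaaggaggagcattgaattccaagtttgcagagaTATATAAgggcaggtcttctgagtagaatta
Obox3: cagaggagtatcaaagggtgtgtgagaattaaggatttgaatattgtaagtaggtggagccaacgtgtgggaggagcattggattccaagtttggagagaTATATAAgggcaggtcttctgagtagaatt
TATATAA began at base −19 in Obox1, −31 in Obox5 and −30 in Obox3. It was not found in the windows of Obox2 and Obox7, but bases after the start were not searched. The bases matching Obox3 ran past the annotated start in both genes, to base 49 in Obox2 and base 24 in Obox7. Whether these 2 genes have the motif after the start was therefore not tested. On either strand, TATATAA was found in 3.04% of 32851 promoter windows. CANNTG, a motif of bHLH factors that reads the same on both strands, was found 2 times in Obox1, 3 times in Obox2 and 2 times in Obox5 and not in Obox3, and in 66.2% of all windows. GGATTA, a motif of homeodomains with lysine at the marked position, was found once in Obox3, from base −168, and in no window of Obox1, Obox2 or Obox5. It was found on either strand in 6.25% of all windows. The match in Obox3 lies upstream of the shared bases, and it is shown in capitals with its flanks at chr7:15639920-15639965 (−).
Obox3: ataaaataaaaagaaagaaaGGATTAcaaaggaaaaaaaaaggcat
These matches are a description of letters in the windows, and binding was not measured.

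Markers of other cells were measured beside these values. The summed TPM of 14 granulosa genes was 67.8 to 99.2 in control FGOs and 72.7 to 176 in control embryos, and all 14 were above 0 in at least 1 library of both groups. Of 13 tested in control, 1 was higher and 3 were lower in embryos, against 15% and 15.5% of all genes tested. Their median log2 fold change was −0.63, against 0.08 over all genes tested. Amhr2, a receptor found on granulosa cells, was the higher one, with a mean of 1.17 TPM in control FGOs and 54.0 TPM in control embryos. The lower ones were Cyp19a1, the aromatase, with 25.1 and 0.80 TPM, Inha, an inhibin subunit, with 10.8 and 2.10 TPM, and Hsd17b1, an enzyme of oestrogen synthesis, with 5.95 and 0.84 TPM. Of 6 blood genes, 4 were at 0 in all control FGOs, with a sum of 0.84 to 2.52 TPM, and the sum was 0 to 23.5 TPM in control embryos. The sum of 7 sperm genes was 26.1 to 35.4 TPM in control FGOs and 0 to 55.2 TPM in control embryos. Of 13 granulosa genes tested in K36M, 0 were higher and 2 lower in embryos, against 9.86% and 15.4% of all genes tested. In the K36M groups the sums were 67.9 to 83.6 TPM in FGOs and 31.3 to 169 TPM in embryos for granulosa genes, and 0 to 59.5 TPM and 0 to 16.9 TPM in embryos for blood and sperm genes. The 16 oocyte genes summed to 27060 to 27227 TPM in control FGOs and to 24314 to 25701 TPM in K36M FGOs, so that every K36M library lay below every control library, and the part of this in the values of Obox1, Obox2 and Obox5 was not tested. The number of genes above 0 was 17362 to 18559 in control FGOs, 12115 to 17329 in control embryos and 10894 to 14879 in K36M oocyte-derived embryos, and the part of these differences in the values of the members was not tested.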

How the data were processed

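RNA-seq libraries had been made with a SMART-Seq stranded kit from pooled FGOs or single late two-cell embryos. Per the labels and the methods of the study, the authors trimmed reads with Trim Galore, aligned them to mm10 with HISAT2, removed ribosomal RNA reads with bedtools, counted genes with featureCounts and deposited TPM values. The annotation, the strand setting and the handling of reads with several positions are not given in the sources used here. All 22 columns were mapped to samples by the labels, and 0 were left unmapped. TPM keeps no depth, so no interval for counting error is given.

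Each comparison used its own groups and genes averaging at least 1 TPM in them. Linear models of the deposited values, as log2(TPM + 1), were made in limma 3.58.1 (R 4.3.3) using lmFit and eBayes, whose prior variance followed a trend. P-values were adjusted by Benjamini-Hochberg, and 0.05 was the threshold. The interaction was fitted over 21 libraries. The script was tested on simulated data. Single values were compared by exact permutation with scipy 1.17.1, and sequences were aligned with Biopython 1.88 in Python 3.11.15, with numpy 2.4.6, pandas 2.3.3 and matplotlib 3.10.9. Named genes were the members, other Obox rows, the 3 genes nearest in pattern to each member and genes within 100 kb. The 3 highest genes of the oocyte, two-cell and other homeobox lists were also named. Of the granulosa list only the genes past the threshold in control were named, and no gene of the blood and sperm lists was. Cyp19a1, Inha, Hsd17b1, Sohlh1, Dppa4 and Zscan4d were named after their values were seen. The members and lists were chosen with earlier results of these data known. Alternatives were a pseudocount of 0.1, all genes above 0, a mean of at least 5 TPM, quantile normalization, median-of-ratios scaling, no trend, array weights, a replicate block, each library left out, control replicate 4 added and 1 fit of 4 groups. Chromatin and methylation data were not used here.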

Additional observations from a re-analysis of the deposited data

Results flagged for a closer look

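Obox6 was at 182 TPM in K36M oocyte-derived two-cell replicate 5, which lay far below the other 7 embryos of its group by Dixon's test. Chance flags about 1 in 20 groups, or 0.6 over the 12 checks made. The same embryo had the highest Obox2 and the highest Obox1 of its group, at 229 and 141 TPM, and without it the log2 fold change of Obox6 between K36M and control embryos was 0.62 (adjusted p = 0.667 from limma). Obox7 was at 133 TPM in control two-cell replicate 4, which was used in no comparison, above the 7 other control embryos, which reached 57.8 TPM. That embryo was also at 0 TPM for Obox3.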

How the results depend on the processing

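Under each of 20 alternatives the number of members past the threshold was 5 in the control stage comparison and 4 or 5 in the K36M stage comparison, with Obox3 and Obox6 entering these tests only through the embryos. No member passed it under any alternative in FGOs (15 alternatives), in two-cell embryos (25) or in the interaction (30), and no relation over all embryos passed it. With a replicate block, 4 members passed in the K36M stage comparison, Obox1 having a log2 fold change of −4.09 (adjusted p = 0.0716 from limma). Same-numbered libraries did not deviate together over all genes (correlations −0.10 to 0.10). Whether they shared an animal or a day is not given in the sources used here. The block changed no other call of a member. Obox7 in K36M was called in neither the block (−1.41, adjusted p = 0.185) nor the fit with a pseudocount of 0.1 (adjusted p = 0.0672). Among fold changes, 2 changed sign. With control replicate 4 added, Obox3 in two-cell embryos went to 0.77, and without control two-cell replicate 1, the interaction of Obox5 went to 0.013 (adjusted p = 1.00 from limma), the range over single libraries left out being −0.49 to 0.013. With control replicate 4 added, r changed sign in 7 of 25 relations, and that of Obox3 and Obox6 went from −0.07 to 0.61 (adjusted p = 0.158 by permutation) and that of Obox3 and the two-cell list from 0.37 to 0.89 (adjusted p = 0.0851). The cause was not tested. Over all genes, array weights gave 4656 higher and 4740 lower genes in the control stage comparison, against 2539 and 2620, and 3246 and 4966 in K36M, against 1644 and 2573. The lowest counts were 1671 and 1339 (without control FGO replicates 2 and 1), and 953 higher with the block and 1210 lower without K36M FGO replicate 3. One fit of 4 groups called 8 higher and 18 lower genes in two-cell embryos, and all genes above 0 gave 11 higher and 2 lower in the interaction, against 0. TPM keeps no depth, so which low values are limited by reads is unknown.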
